A study of Saccharomyces cerevisiae with 4 samples.

Results

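The genes described here encode 48 assembly factors of the large ribosomal subunit in budding yeast, Saccharomyces cerevisiae. They were taken from a named list and found by gene name or open reading frame in the annotation of the arrays. All 48 were on the arrays, as 51 of the 9335 probe sets and among 5779 genes matched by name, with 45 genes on 1 probe set and 3 genes (DBP2, NOG2 and SSF2) on 2. A probe set is a group of short oligonucleotides that together measure 1 transcript.

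Ribosomes are built in the nucleolus, where RNA polymerase I makes a long precursor RNA that is folded, cut and loaded with ribosomal proteins. Assembly factors bind the precursor of the large subunit in order, and RNA helicases, GTPases, methyltransferases and scaffold proteins leave as it matures, moves through the nucleus and enters the cytoplasm. In yeast the genes for these factors are known as a co-regulated group whose transcripts decrease when growth slows or stress sets in.

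Yeast that overexpressed KIN28, the TFIIH kinase that phosphorylates the tail of RNA polymerase II, or POG1, a nuclear factor linked to recovery from pheromone arrest, was sampled before (0 min) and 60 min after lithium chloride was added at 200 mM. The labels place the cells at 25 °C in synthetic complete medium with 2% glucose, lacking uracil or both leucine and uracil during treatment, and do not say which culture had which medium. They give neither the RSP5 genotype nor the host strain, although the series title concerns the stress sensitivity of an rsp5 mutant. Each of the 4 combinations of overexpressed gene and time was 1 array, with no replicate. An untreated culture at 60 min and a culture with an empty vector were not analysed here, so lithium and time in culture cannot be told apart in the change from 0 to 60 min, which is named the response. The labels do not say whether both times came from 1 flask, and p-values measure only the spread between these arrays. In bulk RNA scaled to the array median, less of a transcript per cell and fewer cells with it cannot be told apart.

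Signals are given as the deposited intensity divided by the median of the array, so that 1 is the signal of the median probe set. Array medians, 0 min first, were 41.8 then 54.3 with KIN28 and 60.6 then 48.01 with POG1. Signals at or below the 20th percentile of an array, between 0.211 and 0.226, were set to that floor, and a fold against the floor is written as "at least". The overexpressed genes matched the labels, with KIN28 at 71.9 and 64.9 in its own culture against 1.16 and 0.873 in the other, and POG1 at 58.2 and 75.1 in its own culture against 0.219 and 0.196. The 3′ to 5′ signal ratio of SRB4, a measure of RNA integrity, was 7.50 on the first KIN28 array (0 min) and 3.70 to 4.65 on the other arrays, while that of ACT1 was 1.31 to 1.92. That of SPT15 had another order, 2.79 on the first KIN28 array and 3.27, 3.83 and 2.34 on the KIN28 60 min, POG1 0 min and POG1 60 min arrays. Whether this difference plays a part in the values below was not tested.

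The transcripts of the assembly factors were lower after 60 min in lithium in both cultures. In the KIN28 culture 42 of the 51 probe sets were at least 2-fold lower and 0 at least 2-fold higher, against 12.6% lower and 13.1% higher among 8013 probe sets above the floor at either time. In the POG1 culture 35 were lower and 0 higher, against 14.8% and 13.8% of 8039. In both responses 32 of 51 were at least 2-fold lower and 0 higher, against 7.54% and 6.79% of 7545. Averaged per gene, the median log2 change was -1.93 in the KIN28 culture and -1.54 in the POG1 culture, with quartiles at -2.33 and -1.55 and at -1.94 and -0.97. Over the probe sets the medians were -1.94 and -1.49, beside 0.05 and -0.01 over all probe sets above the floor at either time.

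The responses share no array, so their direction can be read across them. For 50 of 51 probe sets both arrays at 0 min were brighter than both arrays at 60 min, and 1, a probe set of SSF2, was dimmer on both. Among the 8507 probe sets above the floor on at least 1 array, 24.8% were brighter on both arrays at 0 min and 29.9% were dimmer. Signal above the floor was present on all 4 arrays for 47 of the 51 probe sets. At 0 min 48 of 51 lay above the array median in the KIN28 culture and 46 in the POG1 culture, and at 60 min 21 and 30.

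**Figure D1:**
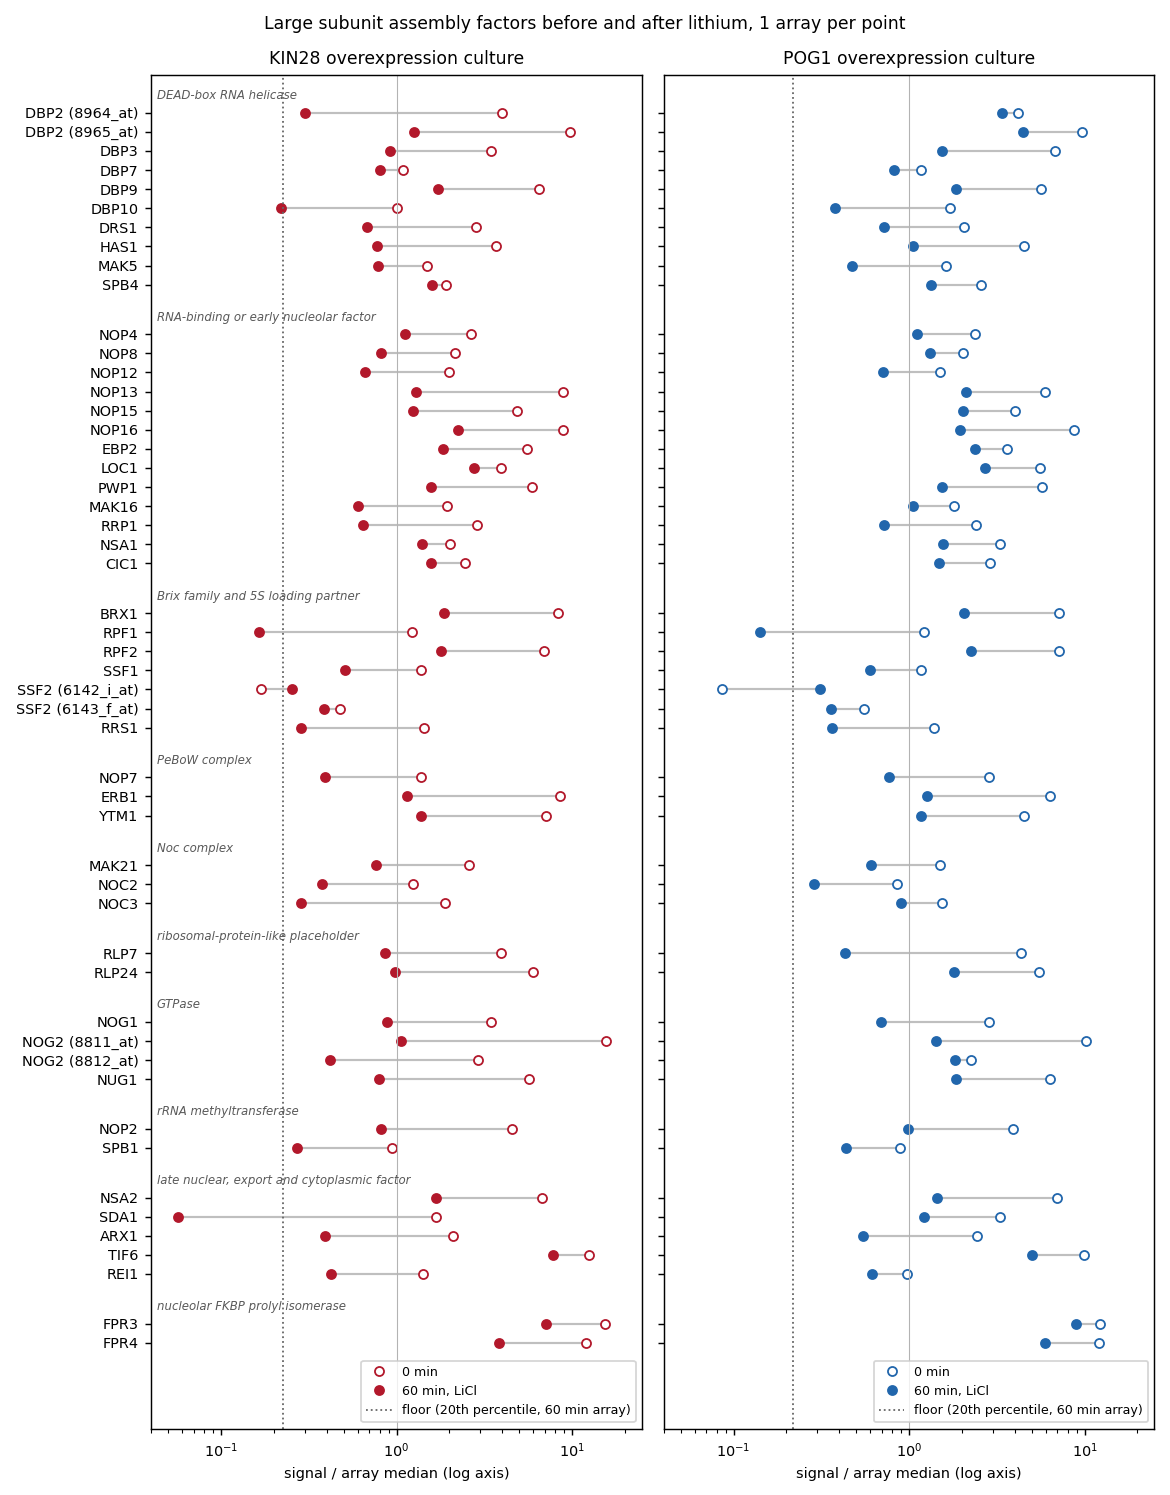
Signal of each probe set of the 48 genes divided by the array median (horizontal log axis), grouped by role, in the KIN28 culture (left) and the POG1 culture (right). Open circles are the 0 min array, filled circles the 60 min array, and the dotted line the floor of the 60 min array. Filled circles lie to the left of open ones for all probe sets but 1 of SSF2.

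A test was possible only across cultures, with limma fitted to all 9275 non-control probe sets with culture as a block, which leaves 1 residual degree of freedom and counts any difference between the responses as error. After Benjamini-Hochberg adjustment 0 probe sets on the array passed 0.05 in either direction, so the percentage called lower was 0. The smallest limma adjusted p was 0.0829, and 20 of the 51 probe sets of assembly factors had it, against 3.62% of all (336 of 9275). At an unadjusted p under 0.05, 43 of 51 were lower and 0 higher, against 12.9% and 13% of all. When the 768 probe sets at or below the floor on all arrays were left out, 18 of 51 passed, all lower, against 1.72% of 8507 (limma adjusted p from 0.0438 for NOG2 and RPF1 to 0.0498 for RRP1). Of the 10 other settings run, 4 kept 0 members and 0 of all probe sets (scaling by bright probe sets, quantile normalization, no floor and the series-wide table). In the remaining 6, 24 members passed (3.58% of all probe sets lower) with 75th percentile scaling, 29 (3.43%) unscaled, 17 (2.61%) with a floor at the 40th percentile, 24 (4.01%) with only probe sets that match 1 gene, 21 (4.25%) with limma-trend and 0 (0.0108%) with no culture block. The call thus depends on the scaling, on the floor, on the variance model and on which probe sets enter the fit. The folds below are descriptions of single arrays.

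The disagreement between readings of a gene was estimated from 80 genes measured by 2 probe sets, both brighter than the floor on every array. As a log2 SD per probe set it was 0.60 for the KIN28 response, 0.63 for the POG1 response, 0.47 between cultures at 0 min and 0.49 at 60 min. It is a scale for reading single probe sets, not medians over the members.

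The DEAD-box helicases, which unwind RNA or strip proteins from it with ATP, differed widely among themselves. Of their 10 probe sets 7 were at least 2-fold lower in each response and 6 in both. HAS1, which acts in the assembly of both subunits, went from 3.70 to 0.774 in the KIN28 culture and from 4.51 to 1.05 in the POG1 culture, 4.78-fold and 4.31-fold lower. DBP10 had signals of 1.01 then 0.221 with KIN28, the second below the floor, and 1.71 then 0.378 with POG1, at least 4.46-fold and 4.52-fold lower. HAS1 thus had similar decreases in the cultures, while the KIN28 value of DBP10 is a lower bound and cannot be compared in this way. DBP3, which speeds an early cut of the precursor, went from 3.45 to 0.922 and from 6.78 to 1.55, and DBP9 from 6.52 to 1.72 and from 5.63 to 1.84. DBP3 was 3.74-fold and 4.38-fold lower and DBP9 3.78-fold and 3.06-fold. DRS1 was 4.17-fold and 2.84-fold lower in the KIN28 and POG1 cultures.

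At the other end of the helicases, DBP7 had signals of 1.09 then 0.803 with KIN28 and 1.17 then 0.823 with POG1. Its decreases of 1.36-fold and 1.43-fold were within the spread between probe sets, although DBP7 acts beside the others in early large subunit assembly. SPB4 had 1.91 then 1.59 with KIN28 and 2.57 then 1.33 with POG1, 1.2-fold and 1.94-fold lower. MAK5, named for its role in maintaining killer virus, was 1.90-fold lower in the KIN28 culture and 3.43-fold in the POG1 culture.

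The helicase gene DBP2, which also acts in mRNA decay and carries an intron, gave a large decrease in the KIN28 culture and a small one in the POG1 culture. Its first probe set read 3.97 then 0.299 with KIN28 and 4.15 then 3.40 with POG1. The other read 9.79 then 1.26 with KIN28 and 9.68 then 4.46 with POG1. At 0 min the cultures were almost equal on both probe sets, and at 60 min the KIN28 culture was lower on both, by 11.4-fold and 3.54-fold. The mean of both gave a decrease of 10.2-fold in the KIN28 culture and 1.63-fold in the POG1 culture. In the KIN28 culture NOG2 was close to it at 10.1-fold, and SDA1, below the floor at 60 min, has only a bound of at least 7.45-fold.

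GTPases act as switches late in nuclear maturation, and their median log2 changes were -2.83 (KIN28) and -1.78 (POG1). NOG2, a GTPase of late nuclear particles and also an intron-containing gene, read 15.6 then 1.07 with KIN28 and 10.2 then 1.43 with POG1 on 1 probe set, 14.6-fold and 7.12-fold lower. On the other it read 2.91 then 0.418 with KIN28 and 2.26 then 1.83 with POG1, 6.95-fold and 1.24-fold lower. The probe sets of NOG2 therefore disagreed in the POG1 culture by more than the spread given above, and those of DBP2 also differed there, at 1.22-fold and 2.17-fold. Which part of each gene the probe sets cover was not analysed here.

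NUG1, a GTPase of nuclear particles, went from 5.68 to 0.797 in the KIN28 culture and from 6.32 to 1.84 in the POG1 culture, 7.13-fold and 3.43-fold lower. NOG1, which binds the early particle and stays on it into the cytoplasm, went from 3.47 to 0.876 and from 2.84 to 0.695, 3.96-fold and 4.09-fold lower. NOG1 thus had nearly the same decrease in both cultures and NUG1 did not.

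The PeBoW complex (NOP7, ERB1 and YTM1) is needed to process the internal spacer between the rRNAs of the large subunit, and all 3 of its genes were at least 2-fold lower in both responses. ERB1 went from 8.56 to 1.14 in the KIN28 culture and from 6.39 to 1.26 in the POG1 culture, 7.48-fold and 5.07-fold lower. YTM1 went from 7.07 to 1.38 and from 4.51 to 1.16, 5.12-fold and 3.88-fold lower. NOP7 read 1.38 then 0.392 with KIN28 and 2.86 then 0.766 with POG1. Its decreases of 3.51-fold and 3.73-fold were alike, and alone among the members it was over 2-fold dimmer with KIN28 than with POG1 at 0 min, by 2.07-fold.

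Placeholder proteins resemble a ribosomal protein and hold its site or a nearby one during assembly. RLP7, related to a large subunit protein of similar name, went from 4.33 to 0.430 in the POG1 culture, 10.1-fold lower, the largest decrease there among members above the floor on both arrays. In the KIN28 culture it went from 3.94 to 0.862, 4.57-fold lower. RLP24, which is exchanged for its ribosomal counterpart in the cytoplasm, went from 5.98 to 0.984 in the KIN28 culture and from 5.48 to 1.80 in the POG1 culture, 6.08-fold and 3.05-fold lower. The larger decrease was in the POG1 culture for RLP7 and in the KIN28 culture for RLP24.

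The Brix family shares an RNA-binding domain, and its members BRX1, RPF1, RPF2, SSF1 and SSF2 act in the nucleolus. RPF1 read 1.23 then 0.165 with KIN28 and 1.22 then 0.142 with POG1, and both 60 min signals lay below the floor. It was at least 5.45-fold and 5.58-fold lower. BRX1 went from 8.35 to 1.85 and from 7.15 to 2.05, 4.5-fold and 3.50-fold lower. RPF2, which with RRS1 brings the smallest rRNA into the particle, went from 6.93 to 1.80 and from 7.19 to 2.27. Its partner RRS1 went from 1.43 to 0.286 and from 1.39 to 0.365, and both partners were at least 3-fold lower in both cultures, at 3.84-fold and 3.17-fold for RPF2 and 4.99-fold and 3.81-fold for RRS1.

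SSF1 and SSF2 are near-identical copies whose products are largely interchangeable, and their probe sets may share targets. SSF1 read 1.38 then 0.507 with KIN28 and 1.16 then 0.597 with POG1, 2.72-fold and 1.95-fold lower. SSF2 was measured by 2 probe sets with suffixes that mark possible cross-detection. One read 0.169 then 0.253 with KIN28 and 0.0859 then 0.313 with POG1, with the 0 min signals below the floor. The other read 0.477 and 0.388, and 0.552 and 0.359. SSF2 was thus dim throughout, its probe sets lay in opposite directions, and its values carry little weight.

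Noc proteins form pairs that move with the particle from nucleolus to nucleoplasm. MAK21, also called Noc1, went from 2.58 to 0.767 in the KIN28 culture and from 1.5 to 0.610 in the POG1 culture, 3.36-fold and 2.46-fold lower. NOC2, the partner common to both pairs, went from 1.24 to 0.378 and from 0.853 to 0.285, 3.28-fold and 2.99-fold lower. NOC3, which is also linked to the start of DNA replication, read 1.90 then 0.285 with KIN28 and 1.54 then 0.898 with POG1. Its decrease was 6.68-fold in the KIN28 culture and 1.71-fold in the POG1 culture, unlike that of its partner.

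Both rRNA methyltransferases were at least 2-fold lower in both cultures. NOP2, which methylates a cytosine of the large rRNA, went from 4.56 to 0.814 and from 3.91 to 0.980, 5.6-fold and 3.98-fold lower. SPB1, which methylates riboses there, went from 0.948 to 0.270 and from 0.887 to 0.437, 3.50-fold and 2.03-fold lower.

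The 13 RNA-binding and other early nucleolar factors had the smallest median decrease among roles with at least 3 genes, with a log2 change of -1.59 in the KIN28 culture and -1.08 in the POG1 culture. NOP13, an RNA-binding nucleolar protein, went from 8.83 to 1.3 in the KIN28 culture and from 5.97 to 2.12 in the POG1 culture, 6.81-fold and 2.81-fold lower. NOP16 went from 8.90 to 2.23 and from 8.72 to 1.96, 3.99-fold and 4.45-fold lower. PWP1, a protein of WD repeats, was 3.72-fold lower in each culture, and RRP1 was 4.46-fold and 3.34-fold lower. NOP15, which binds the internal spacer, went from 4.85 to 1.24 in the KIN28 culture and from 4.0 to 2.04 in the POG1 culture, 3.92-fold and 1.96-fold lower. NOP12 was 2.99-fold and 2.12-fold, and NOP4 2.40-fold and 2.16-fold lower. EBP2 went from 5.53 to 1.84 and from 3.60 to 2.37. MAK16, EBP2 and NOP8 were 3.21-fold, 3.01-fold and 2.65-fold lower in the KIN28 culture and 1.71-fold, 1.52-fold and 1.53-fold in the POG1 culture.

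Within that role LOC1, NSA1 and CIC1 stood at the other end. LOC1, which also acts in localizing ASH1 mRNA, read 3.94 then 2.78 with KIN28 and 5.58 then 2.73 with POG1, 1.42-fold and 2.05-fold lower. NSA1 was 1.46-fold and 2.12-fold lower, and CIC1, which sits on the internal spacer, 1.57-fold and 1.95-fold lower. NSA1 forms a module of the early particle with RPF1, MAK16 and RRP1, whose decreases in the KIN28 culture were 3.21-fold or more. In the same culture LOC1, NSA1, CIC1, SPB4, DBP7, MAK5 and TIF6 were each less than 2-fold lower. Both probe sets of SSF2 also changed by less than 2-fold there.

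Late nuclear, export and cytoplasmic factors included some of the larger and some of the smaller decreases. ARX1, an export factor, went from 2.10 to 0.392 in the KIN28 culture and from 2.45 to 0.547 in the POG1 culture, 5.36-fold and 4.48-fold lower. NSA2, a factor of nuclear particles, went from 6.70 to 1.68 and from 7.01 to 1.44, 3.99-fold and 4.87-fold lower. SDA1, a nuclear factor also needed for passage through the cell cycle start, read 1.68 then 0.0566 with KIN28, the second far below the floor, and 3.29 then 1.21 with POG1. It was at least 7.45-fold lower in the KIN28 culture and 2.71-fold in the POG1 culture.

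TIF6 keeps the subunits apart until the large one is mature, and REI1 recycles ARX1 protein in the cytoplasm. TIF6 read 12.6 then 7.84 with KIN28 and 9.94 then 5.05 with POG1, only 1.6-fold and 1.97-fold lower. REI1, on a probe set that can detect related sequences, read 1.41 then 0.421 with KIN28 and 0.978 then 0.611 with POG1, 3.34-fold and 1.6-fold lower.

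FPR3 and FPR4 are paralogous nucleolar prolyl isomerases of the FKBP type, with roles at rDNA and chromatin as well. FPR3 read 15.5 then 7.12 with KIN28 and 12.2 then 8.97 with POG1, 2.17-fold and 1.36-fold lower. FPR4 read 12.1 then 3.83 with KIN28 and 12.1 then 5.91 with POG1, 3.15-fold and 2.04-fold lower. FPR4 had the larger decrease of the pair in both cultures.

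Counting every probe set once, 32 were at least 2-fold lower in both responses, 10 in the KIN28 response alone, 3 in the POG1 response alone and 6 in neither. Among all 7545 compared, 5.26% were lower in the KIN28 response alone and 7.78% in the POG1 response alone. The 3 were MAK5, LOC1 and NSA1. The 6 were DBP7, SPB4, CIC1, TIF6 and both of SSF2. Across the 51 probe sets the responses of the cultures had a Pearson r of 0.48, against 0.64 over all 9275, a description over probe sets that share the arrays. The changes of the members cover a narrower range, from -3.87 to 0.26 in the KIN28 response against -6.40 to 7.29 over all. These values of r therefore cannot be compared directly.

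**Figure D2:**
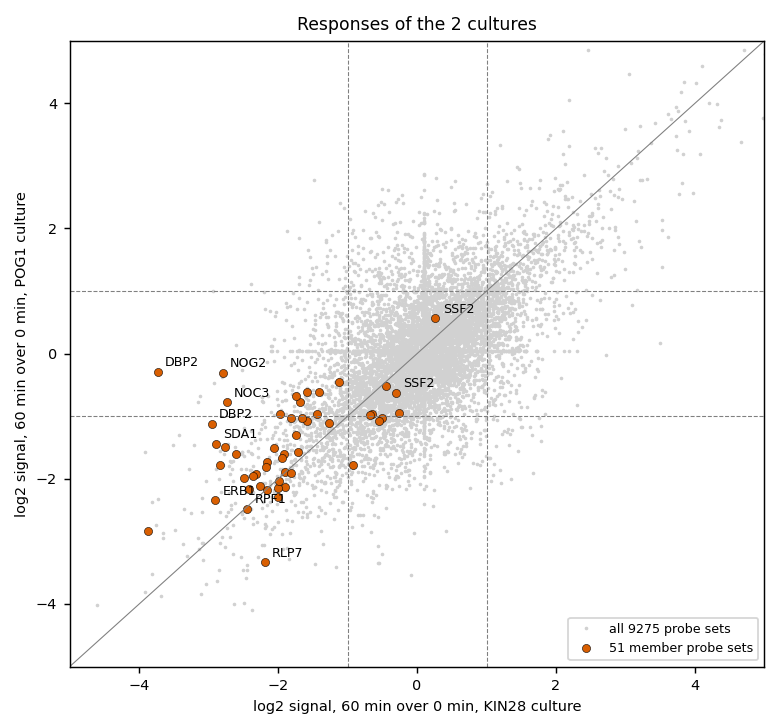
Log2 change in signal from 0 to 60 min in the KIN28 culture (horizontal) and the POG1 culture (vertical) for all 9275 non-control probe sets (grey) and the 51 of the assembly factors (orange), 1 array per culture and time. Dashed lines mark 2-fold and the diagonal equal change. Of the orange points 32 lie in the lower left corner beyond both dashed lines, and DBP2, NOG2, NOC3 and SDA1 lie well above the diagonal. Points beyond the axes are not drawn.

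The next comparison asks where the cultures differed. Before lithium the 51 probe sets had a median log2 ratio, KIN28 over POG1, of 0.09, with 1 of 50 compared (NOP7) at least 2-fold lower and 0 higher, against 6.11% and 5.73% of all. At 60 min the median was -0.27, with 6 of 50 at least 2-fold lower and 1 higher, against 6.5% and 7.31%. The 6 were both probe sets of DBP2, the second of NOG2, and those of NOC3, NUG1 and SDA1, at 3.16-fold for NOC3, 2.31-fold for NUG1 and at least 5.37-fold for SDA1. RLP7 was the 1 higher in the KIN28 culture, by 2.01-fold, and it was below that level under 2 other scalings and a higher floor.

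The limma fit of the culture difference across both times called 0 of 9275 probe sets (0% lower and 0% higher). At an unadjusted p under 0.05 it had 4 of the 51 lower and 0 higher, against 5.38% and 4.14% of all. The 4 were NOP7, DBP3, DBP10 and SDA1, and the smallest limma adjusted p among the 51 was 0.521. NOP7 had a log2 difference of -1.01 ± 0.19 (moderated SE of limma, 4 arrays). That SE draws on the variance of all probe sets and is not a spread between replicates of NOP7. Both the overexpressed gene and its plasmid and medium could differ between the cultures, and these cannot be told apart.

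The log2 change was the lower one in the KIN28 culture for 34 of the 51 probe sets and for 3788 of all 9275. For the 768 probe sets at the floor on all arrays, the floors alone fix this difference above 0. The count over all is thus partly set in advance. The members' median difference in log2 change was -0.39, beside 0.09 over the 7545 compared. The members' median was 0.32 when signals were left unscaled. The responses differed at least 2-fold with the lower change in the KIN28 culture for 10 probe sets, against 9.36% of 7545, and in the POG1 culture for 1, RLP7, against 10%. The 10 were both of DBP2 and NOG2 and those of NOP13, NOP15, NOC3, NUG1, SDA1 and REI1. For this difference the spread per probe set was 0.70 (log2 SD), the largest of the comparisons. Of the 80 genes with 2 probe sets, 27.5% had readings over 2-fold apart. Unscaled, 4 and 8 probe sets differed in these directions. No residual degree of freedom was left to test this difference, and the array with the high SRB4 ratio, though not the highest SPT15 ratio, is the 0 min array of the KIN28 response.

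**Figure D3:**
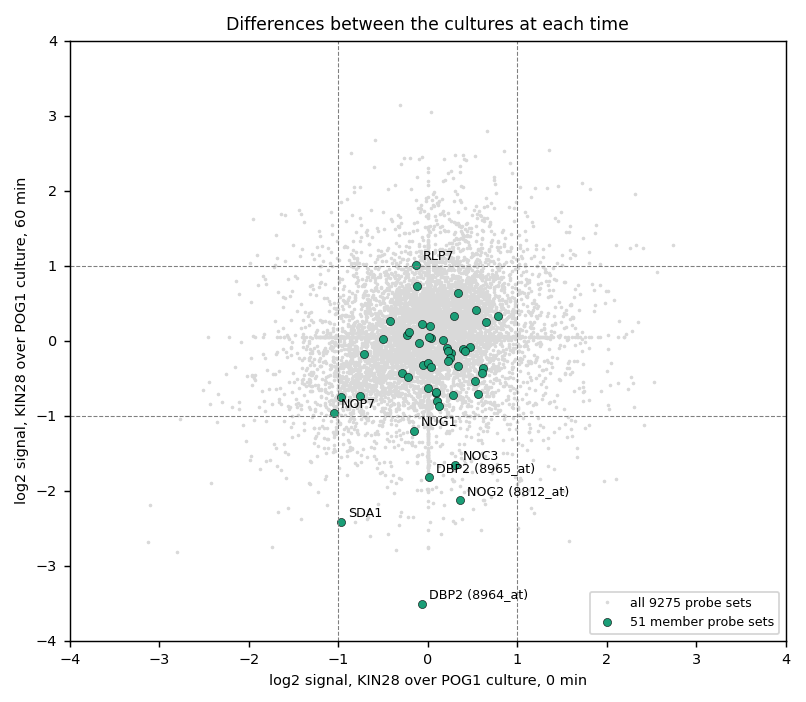
Log2 ratio of signal, KIN28 over POG1, at 0 min (horizontal) and at 60 min (vertical) for all 9275 non-control probe sets (grey) and the 51 of the assembly factors (green), 1 array per culture and time. Dashed lines mark 2-fold. Most green points lie inside the dashed square, NOP7 lies left of it, 6 lie below it and RLP7 just above it. Points beyond the axes are not drawn.

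Other genes of ribosome synthesis were set beside the members, from lists that leave the 48 out. Of 43 other large subunit assembly factors, each on 1 probe set, 30 were at least 2-fold lower in the KIN28 response. In the POG1 response 27 were lower and in both 22, and 0 were higher. Over all probe sets 12.6%, 14.8% and 7.54% were lower and 13.1%, 13.8% and 6.79% higher. The median shared log2 change of the 43 was -1.32, beside -1.78 for the members. Over all probe sets it was 0.07, which is the value of probe sets at the floor on all arrays. Over those that match 1 gene it was 0.02. NMD3, the export adaptor of the large subunit, went from 6.43 to 0.972 in the KIN28 culture and from 6.06 to 1.05 in the POG1 culture, 6.17-fold lower on average. ALB1, which binds ARX1, was 5.98-fold lower. In the limma fit 0 of 43 passed. At its unadjusted p under 0.05, 35 were lower and 0 higher, against 12.9% and 13% of all.

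Small subunit assembly factors (55 genes, 69 probe sets) had a median shared log2 change of -1.32. Of 68 compared 47 were at least 2-fold lower in the KIN28 response, against 12.6% of all probe sets. In the POG1 response 43 of 66 were lower, against 14.8%, and in both 35 of 65, against 7.54%. UTP20 and UTP22 had several probe sets each, some at the floor and in mixed directions, and so weigh more in these values than other genes. UTP23 was 6.78-fold lower on average and ENP2 at least 6.49-fold. In the POG1 response 1 probe set of UTP20 and 1 of UTP22 were higher by at least 3.01-fold and 4.80-fold, both from below the floor, while another probe set of each gene was 3.12-fold and 2.32-fold lower. RNA polymerase I subunits with RRN3 (8 genes, 14 probe sets) had a median of -0.94. Of these 14 probe sets 10 were above the floor on all arrays. In each response 11 had log2 changes below 0 and 3 above, and genes with several probe sets weigh more. RPA190 and RPA135 were 5.91-fold and 5.84-fold lower on ordinary probe sets. RRN3, the initiation factor, was 1.31-fold lower in the KIN28 culture and 1.21-fold higher in the POG1 culture. In the limma fit 0 probe sets of either list passed. At its unadjusted p under 0.05, 50 and 8 were lower and 0 higher, against 12.9% and 13% of all.

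Large subunit ribosomal proteins, of which 44 of 76 genes were measured by probe sets that match 1 gene, had a median shared log2 change of -1.40. Of their 55 probe sets 38 were at least 2-fold lower in both responses, against 7.54% of all. RPL7B and RPL22B were lowest, at 29.5-fold on a probe set that can detect related sequences and 11.1-fold. The limma fit called 0 of the 55, with 53 lower and 0 higher at an unadjusted p under 0.05, against 12.9% and 13% of all.

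Among 8 regulators of these genes 1 was at least 2-fold lower in both responses and 0 were higher, against 7.54% and 6.79% of 7545 probe sets. That gene, TOD6, encodes a repressor that binds the promoters of assembly factor genes, and it went from 1.39 to 0.389 in the KIN28 culture and from 1.19 to 0.313 in the POG1 culture. DOT6, its paralog, had signals of 3.72 then 2.25 with KIN28 and 2.46 then 3.17 with POG1. SFP1, an activator of the group, had signals of 1.09 and 1.24, and 1.22 and 1.26. FHL1, which acts at ribosomal protein genes, was 1.82-fold lower on average, with its POG1 60 min signal just below the floor. The limma fit called 0 of 8, with 3 lower and 0 higher at an unadjusted p under 0.05, against 12.9% and 13% of all.

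**Figure D4:**
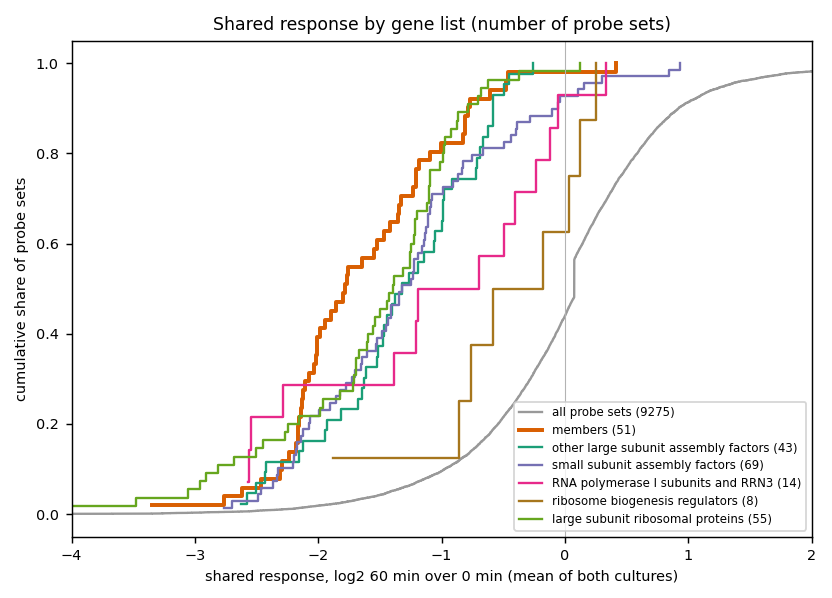
Cumulative share of probe sets (vertical) by shared response, the mean log2 change from 0 to 60 min of both cultures (horizontal), for the 51 probe sets of the assembly factors (thick orange), 5 other lists and all 9275 non-control probe sets (grey); numbers of probe sets are in the key. The members' median is -1.78 and that of all probe sets 0.07, which is the value of probe sets at the floor on all arrays. The curves of the assembly factor and ribosomal protein lists lie to the left of the grey curve. Values beyond the axis are not drawn.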

How the data were processed

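Poly(A)-enriched RNA was labelled with biotin and 15 µg of cRNA hybridized to Affymetrix yeast genome S98 arrays at 45 °C for 18 h, per the labels. The deposited intensity of each probe set is on a linear scale, and the software that made it is not given in the sources used here. The deposited ratio is that intensity divided by the authors' constant per array, per the file headers, and that constant equals the array median to within rounding. The series-wide table holds the same intensity within 0.05. Here the intensity was divided by the array median, raised to the 20th percentile of 9275 non-control probe sets (60 controls were left out), and taken to log2. Probe sets were named from the platform annotation, or from the description in the files where it named none; 6631 matched 1 gene, 328 several and 2316 none. Gene names follow RefSeq. A probe set was compared when above the floor on at least 1 array of a comparison (in each culture for the difference of responses) and counted at 2-fold. Single comparisons have 1 array per group and no test. The shared response and the culture difference were tested with limma 3.58.1 (R 4.3.3) on all 4 arrays, additive in culture and time, with Benjamini-Hochberg adjustment over all probe sets at 0.05. On simulated data with noise of 0.209 (log2), 94.9% of 98 probe sets changed 2-fold and 102 of 102 changed 4-fold were called in the shared response, with 9 unchanged ones. The simulated noise was equal for all probe sets, unlike that of the arrays, where the same fit called 0 of 9275. These rates therefore check the code and do not give the power of the real fit. The members, lists and roles were chosen with earlier results of these data known. All 48 members are named; other genes were the label checks, the 2 largest decreases of a list by the shared response and members of a list that were 2-fold higher there, and DOT6, SFP1, RRN3, UTP20 and UTP22, chosen after their values were seen. Python 3.11.15, numpy 2.4.6, pandas 2.3.3 and matplotlib 3.10.9 were used. The number of arrays limits the precision.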

Additional observations from a re-analysis of the deposited data

How the results depend on the processing

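The median decreases in both responses kept their direction under the alternatives run. At the 2-fold threshold 38 to 43 probe sets were lower in the KIN28 response and 32 to 43 in the POG1 response. Medians ran from -2.05 to -1.57 and from -1.83 to -1.12, and 1 probe set was higher in the POG1 response without a floor. Across the scalings, 561 (unscaled) to 1186 (75th percentile) of all 8013 compared were lower in the KIN28 response. In the POG1 response 1080 (scaled by bright probe sets) to 1946 (unscaled) of 8039 were lower. The 43 members lower in the POG1 response were also an unscaled count. At 1.5-fold 45 and 46 members were lower and at 3-fold 37 and 23, and shares over all probe sets were not counted there. The limma count of the shared response, 0 of 51 and 0 of 9275, stayed at 0 with scaling by bright probe sets, quantile normalization, no floor and the series-wide table. In contrast 24 members among 332 lower and 283 higher probe sets passed with 75th percentile scaling, 29 among 318 and 288 with no scaling, 17 among 242 and 243 with a floor at the 40th percentile, 24 among 266 and 247 with only probe sets that match 1 gene, 21 among 394 and 372 with limma-trend, and 18 among 146 and 144 with only probe sets above the floor on at least 1 array. With no replicate block for culture 0 members and 1 lower and 1 higher probe set passed. The culture difference called 0 members throughout; it called 1 lower and 1 higher probe set with 75th percentile scaling, 1-gene probe sets, limma-trend and the dim filter, and 6 and 1 unscaled.

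At 0 min 3 members were lower in the KIN28 culture with scaling by the median of bright probe sets (all arrays over the floor). With quantile normalization 2 were lower, and unscaled 6. Over all 7982 probe sets compared, these settings had 557, 473 and 1748 lower. At 1.5-fold 5 members were lower and 4 higher, and at 3-fold 0 were lower. The members' median turned to -0.45 unscaled. At 60 min 16 were lower and 3 higher at 1.5-fold; 0 were higher with scaling by bright probe sets, by the 75th percentile, with the higher floor and at 3-fold. For the difference of responses, 17 and 3 differed at 1.5-fold, 4 and 0 at 3-fold and 4 and 8 unscaled, with a median of 0.32; 0 were higher with 75th percentile scaling and the higher floor, and SDA1 turned to 0.0887 with that floor. Unscaled signals shift the median of all probe sets, which the floors set, to 0.48 in the KIN28 and -0.29 in the POG1 response. The cause of these changes was not tested. The culture block pairs the times within each culture, and no array could be left out with residual degrees of freedom remaining. The promoter motif comparison was not run. With 1 array per group, small folds near the floor are the least certain.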

Other observations

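With the lists above as partners, 4 of the 48 genes (8.33%) had an adjacent protein-coding neighbour from them, a share near that of all genes (467 of 6021, 7.76%). NSA2 is divergent from LCP5, a small subunit factor, and their shared log2 changes were -2.14 and -1.22. SSF1 is divergent from RRP3, a small subunit helicase, at -1.20 and -0.67. The paralogs FPR3 and FPR4 each lie in tandem with a paralog of the same ribosomal protein, RPL6A and RPL6B, at -0.78 with -1.40 and -1.34 with -2.15. In both pairs the ribosomal protein gene had the larger decrease, and the copy beside FPR4 exceeded the copy beside FPR3.

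On its other side NSA2 converges with RSP5, the ubiquitin ligase gene of the series title. RSP5 had a shared log2 change of 0.51 where NSA2 had -2.14, and its changes of 0.47 in the KIN28 and 0.54 in the POG1 culture lay within the spread between probe sets. This comparison of neighbours was chosen after the members' values were seen.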
